A study of Homo sapiens with 4 samples.

Results

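OTUB1 and 9 other deubiquitinases of the ovarian tumour (OTU) family were followed in a genome-wide CRISPR-Cas9 knockout screen for resistance to HQ461. The members were OTUB1, OTUB2, OTUD1, OTUD3, OTUD4, OTUD5, OTUD6B, OTUD7B, YOD1 and ZRANB1, picked by gene name, and all 10 of them were found among the 19111 genes of the count table. Each had 4 sgRNAs, which gave 40 sgRNAs of 76171 that target a gene. OTUB1 had been picked because its sgRNAs were already known to be high with HQ461 in these counts, so its fold change is given as a description. A549 is a human lung adenocarcinoma cell line, and HQ461 is a small molecule that is toxic to it. A549 cells carrying the sgRNA library were selected with puromycin and then passaged for 3 weeks in 4 µM HQ461 or in the vehicle, 0.1% (v/v) DMSO. By the study's methods both groups came from the same library-bearing cells and differed in the compound alone, and no count from before treatment was used here. The study made 2 biological replicates of each condition, but the table has 1 column for each condition, so no difference below has a replicate check and none was tested.

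Ubiquitin is passed from an E1 to an E2 enzyme and then, with the help of an E3 ligase, to a substrate, and deubiquitinases take it off again. OTU enzymes are cysteine proteases, and many of them prefer particular types of ubiquitin chain. OTUB1 cleaves the chain type that most often sends proteins to the proteasome. It also binds E2 enzymes charged with ubiquitin, among them UBE2N and the UBE2D enzymes, and blocks them without any cleavage.

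The HQ461 column held 16127620 reads and the DMSO column 14428845. An sgRNA count is a number of PCR reads and stands for the cells that carry that sgRNA, whether or not its gene was knocked out. Counts were divided by a size factor per column, and the log2 fold change of an sgRNA was HQ461 over DMSO with 1 added to each normalized count. The value of a gene was the median over its sgRNAs. A gene was called higher or lower at a log2 fold change of at least 1 or at most -1. Single sgRNAs were compared with 997 non-targeting controls, whose 1st and 99th percentiles were -1.67 and 2.92. All intervals are exact 95% intervals that cover counting error only, since reads without molecular identifiers are not independent molecules. The table names sgRNAs by number, so their sequences and cut sites are not given.

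sgRNAs against OTUB1 were far more abundant with HQ461 than with DMSO. OTUB1 lies on 11q (GRCh38, chromosome 11, 63985853 to 64001811, plus strand). Its first sgRNA had 238 reads with DMSO and 4908 with HQ461. The second had 152 and 2679, and the third had 208 and 2688. The fourth had 121 reads with DMSO and 91 with HQ461. Thus 3 sgRNAs were high with HQ461 and 1 was level within counting error after scaling. Their log2 fold changes were 4.89 (4.71 to 5.09), 4.66 (4.43 to 4.91), 4.21 (4.01 to 4.43) and 0.11 (-0.29 to 0.52). These are normalized folds of 29.6, 25.2, 18.5 and 1.08.

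Together the OTUB1 sgRNAs held 719 reads with DMSO (Poisson interval 667 to 774) and 10366 with HQ461 (10167.4 to 10567.5). That was 0.00498% of the library with DMSO (Clopper-Pearson interval 0.00463% to 0.00536%) and 0.0643% with HQ461 (0.0630% to 0.0655%). The gene's median log2 fold change was 4.43, a 21.6-fold difference, with an SD of 2.25 over the 4 sgRNAs. Leaving out 1 sgRNA at a time gave medians from 4.21 to 4.66. OTUB1 ranked 12 of 19111 genes by this median, 19 by the mean over sgRNAs and 34 by summed counts. At least 3 sgRNAs above the 99th percentile of the controls were found in 26 genes, or 0.136%, and OTUB1 was 1 of them. Its sgRNAs had ordinary counts with DMSO, with a median of 149.95 normalized counts, at the 60.3 percentile of all genes.

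**Figure D1:**
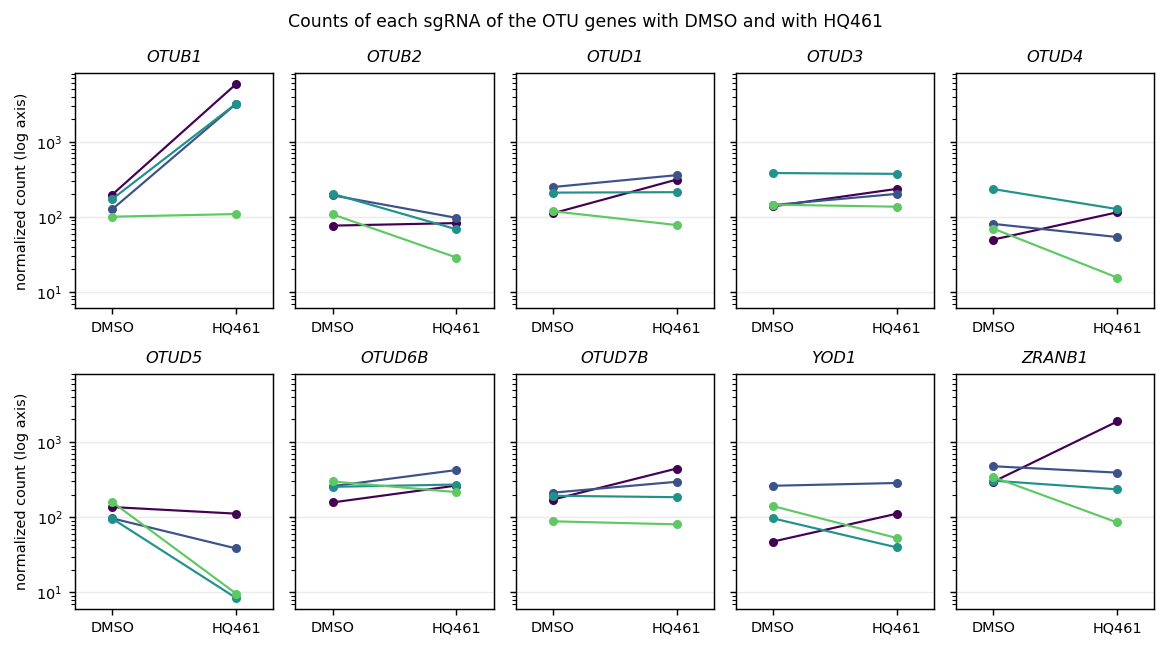
Normalized counts (log axis) of the 4 sgRNAs of each of the 10 OTU genes with DMSO and with HQ461, 1 line per sgRNA, 1 column of counts per condition. OTUB1 has 3 lines that climb steeply and 1 that is flat, and ZRANB1 has 1 climbing line (6.32-fold). Some lines of other genes climb less, among them the first sgRNAs of OTUD1 (2.80-fold) and OTUD7B (2.59-fold). The OTUD5 lines all run down, 2 of them to under 10 normalized counts.

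The neighbouring genes show how far this part of 11q was raised around OTUB1. DDB1, the adaptor of the CUL4 ligases, lies 2.67 Mb towards the centromere. OTUB1 was far above the genes around it, but it had been picked for its high sgRNAs. The gap is therefore a description, and whether OTUB1 is high by itself was not tested. The 10 nearest library genes on each side had a median log2 fold change of 0.71, from -0.04 for PLA2G16 to 1.94 for FERMT3. The difference from OTUB1 to that median was 3.72, and none of the 20 neighbours reached its value. On the centromere side the nearest gene, COX8A, a subunit of cytochrome c oxidase, had 792 reads with DMSO, 952 with HQ461 and a log2 fold change of 0.75. On the telomere side the nearest midpoint was that of FLRT1, at 1.42. FLRT1 lies inside MACROD1, whose own value was 0.53 and whose end overlaps the end of OTUB1. NAA40, an N-terminal acetyltransferase on the centromere side, was at 0.67.

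The neighbourhood as a whole was shifted upwards by less than 1. Of the 20 neighbours, 4 were called higher (FERMT3 at 1.94, FKBP2 at 1.91, TRPT1 at 1.86 and FLRT1 at 1.42), and 0 were called lower. Among all genes 9.01% were called higher and 7.69% lower. The called neighbours were all on the telomere side, where the median over 10 genes was 0.87, against 0.58 over the 10 on the centromere side. Of the 79 sgRNAs of the 20 neighbours, 1 was above the 99th percentile of the controls. It targeted RTN3. Over all sgRNAs 2.44% were above that percentile. The flat OTUB1 sgRNA, at 0.11, was below the median of the neighbours.

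The same held over wider windows. Within 1 Mb of OTUB1 there were 53 genes with a median of 0.80, and within 5 Mb there were 284 with a median of 0.75. DDB1, at 10.25, was the only gene within 5 Mb above OTUB1. On the centromere side of that window the median was 1.10 over 122 genes, and on the telomere side 0.57 over 162. The 46 genes from DDB1 to the far end of the window had a median of 1.94, and 41 of them (89.1%) were called higher. The 75 genes between DDB1 and OTUB1 had a median of 0.71, and 24 (32%) were called higher. OTUB1 therefore lay in the less raised stretch beyond DDB1, 2.50 above the median of the genes on the far side of DDB1. Within 5 Mb there were 1127 sgRNAs that target neither OTUB1 nor DDB1. Of these, 1 reached the OTUB1 sgRNA at 4.89, 7 that at 4.66, 17 that at 4.21 and 810 that at 0.11. Of the 76171 sgRNAs that target a gene, 251, 308, 509 and 34648 were above these values. As a share, the window was thus below the library at 4.89 and above it at 4.66, 4.21 and 0.11.

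**Figure D2:**
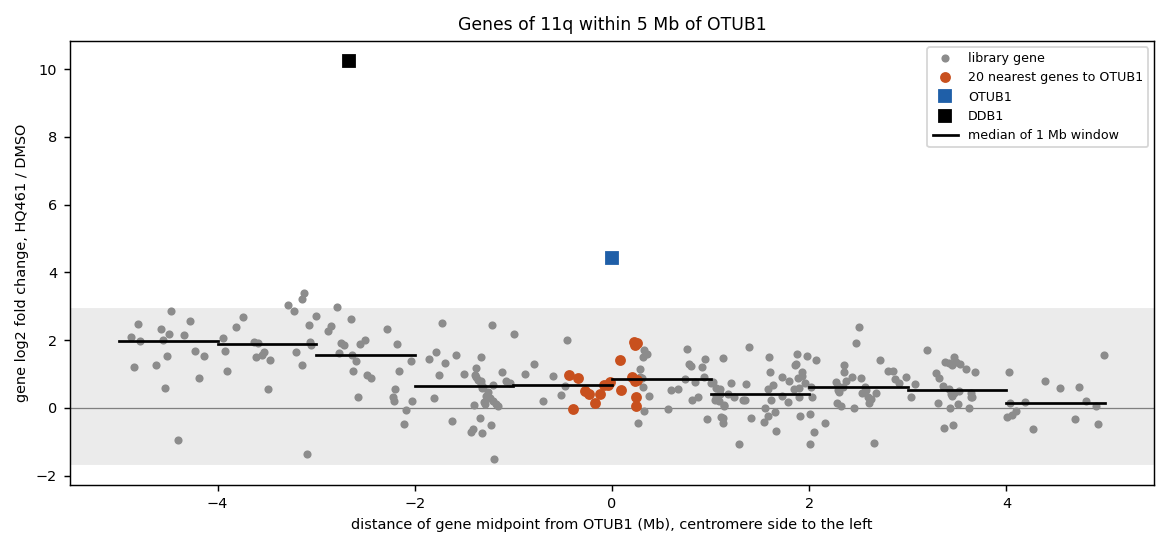
Median log2 fold change of each library gene within 5 Mb of OTUB1 against the distance of its midpoint in Mb, with the 20 nearest genes in orange, black bars for the median of each 1 Mb window, and a grey band spanning the 1st to 99th percentiles of non-targeting controls. OTUB1 (4.43) and DDB1 (10.25) stand alone above the band's upper edge of 2.92 apart from a few genes near DDB1, and the window medians are higher on the centromere side of DDB1 than around OTUB1. The band describes single sgRNAs and the points are gene medians, so a gene inside the band can still be raised.

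OTUB2, the paralog of OTUB1, was lower with HQ461. It lies on chromosome 14 (94026340 to 94048930). Its sgRNAs had 92, 233, 244 and 130 reads with DMSO and 69, 81, 57 and 24 with HQ461. The first was level at 0.11, and the others were at -0.99, -1.56 and -1.87. The last was below the 1st percentile of the controls. The gene's median was -1.27, a 2.42-fold lower level with HQ461, and all 20 of its neighbours, whose median was -0.40, had higher values. The highest OTUB2 sgRNA and the lowest OTUB1 sgRNA met at 0.11. The other OTUB1 sgRNAs, at 4.21 or more, lay above every OTUB2 sgRNA, but OTUB1 had been picked for its high sgRNAs. Of the 76171 sgRNAs that target a gene, 509 were above 4.21, so this lack of overlap says little about the paralogs.

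OTUD5, known for restraining innate immune signalling by its action on TRAF3, had the lowest level of the members with HQ461. It lies on the X chromosome (48922024 to 48958386). Its sgRNAs had 164, 116, 115 and 191 reads with DMSO and 93, 32, 7 and 8 with HQ461. All 4 had lower normalized counts with HQ461, the first of them only within counting error, and the extent differed widely between them. The log2 fold changes were -0.29 (-0.67 to 0.08), -1.31 (-1.94 to -0.76), -3.36 (-4.86 to -2.42) and -3.92 (-5.28 to -3.04). The median was -2.34, a 5.05-fold lower level, with an SD of 1.71, and leaving out 1 sgRNA at a time gave -3.36 to -1.31. With summed counts it was -1.53. The neighbours of OTUD5 on the X chromosome were slightly raised, with a median of 0.53 from -1.42 to 1.82, so that OTUD5 was 2.87 below them and below all 20. Counted from the lowest median, OTUD5 ranked 88 of the 19111 genes. Of all genes 9.18% had every sgRNA lower with HQ461, and 4.7% had at least 2 below the 1st percentile of the controls, as OTUD5 had.

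The other 7 members were not called in either direction. OTUD6B (chromosome 8), linked to assembly of the proteasome, had 189, 311, 305 and 359 reads with DMSO and 220, 354, 227 and 180 with HQ461. Its median log2 fold change was 0.41, and its sgRNAs were well represented with DMSO, at the 90.0 percentile of all genes. OTUD1 (chromosome 10) had 134, 300, 253 and 143 reads with DMSO and 262, 300, 178 and 65 with HQ461, and a median of 0.27. Its sgRNAs ran from -0.60 to 1.49, all within the 1st and 99th percentiles of the controls.

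OTUD3 (chromosome 1) had 166, 173, 461 and 175 reads with DMSO and 197, 169, 312 and 114 with HQ461. Its sgRNAs lay closest together, with an SD of 0.42, and their median was 0.23. OTUD7B (chromosome 1), also called Cezanne, opposes the anaphase-promoting complex on cell cycle substrates. It had 206, 255, 232 and 106 reads with DMSO and 371, 247, 154 and 67 with HQ461, and a median of 0.21. OTUD6B, OTUD1, OTUD3 and OTUD7B were 0.41 to 0.53 above the medians of their own 20 neighbours. They turned to values from -0.48 to -0.28 when scaled by total counts, a setting that moved the median of all genes to -0.70.

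OTUD4 (chromosome 4), a scaffold for other deubiquitinases in DNA alkylation repair, had 60, 97, 282 and 84 reads with DMSO and 96, 45, 106 and 13 with HQ461. Its first sgRNA, at 1.19, was within the range of the controls and its last, at -2.10, below it, and the median was -0.73. YOD1 (chromosome 1), a partner of the ATPase VCP, had 57, 315, 116 and 169 reads with DMSO and 93, 238, 33 and 44 with HQ461. Its median of -0.57 lies between 2 sgRNAs above 0 and 2 at -1.27 and -1.40. OTUD4 was 0.26 below the median of its neighbours and YOD1 0.75 below, with 19 of 20 neighbours higher than YOD1.

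ZRANB1, or TRABID, an enzyme known from Wnt signalling, showed the widest disagreement among these 7 genes. Its first sgRNA had 356 reads with DMSO and 1567 with HQ461. Its log2 fold change, 2.66, stayed under the 99th percentile of the controls. The second had 573 and 327, and the third 368 and 196. The fourth had 412 and 71, a log2 fold change between -2.39 and -1.64, and lay below the 1st percentile of the controls. The first and the fourth thus moved in opposite directions. The gene's median log2 fold change was -0.33 and that of its summed counts 0.87, so its direction depends on the summary. Summed counts follow the first sgRNA, and the median does not.

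Over the 10 members the median log2 fold change was -0.06, against -0.02 over all genes. In order the members ran from OTUB1 at 4.43 through OTUD6B, OTUD1, OTUD3, OTUD7B, ZRANB1, YOD1 and OTUD4 to OTUB2 at -1.27 and OTUD5 at -2.34. Each neighbouring pair in this order overlapped in its sgRNAs, and for OTUB1 and OTUD6B that overlap came from the fourth OTUB1 sgRNA alone. In all 1 of 10 was called higher and 2 lower, beside 9.01% and 7.69% of all genes. Of the 40 sgRNAs, 3 were above the 99th percentile of the controls, all against OTUB1, where 2.44% of all sgRNAs were. At least 1 such sgRNA was found in 1 of the 10 members and in 8.82% of all genes. A further 5 were below the 1st percentile, where 7.53% of all sgRNAs were. They targeted OTUD5 (2), OTUB2, OTUD4 and ZRANB1 (1 each).

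**Figure D3:**
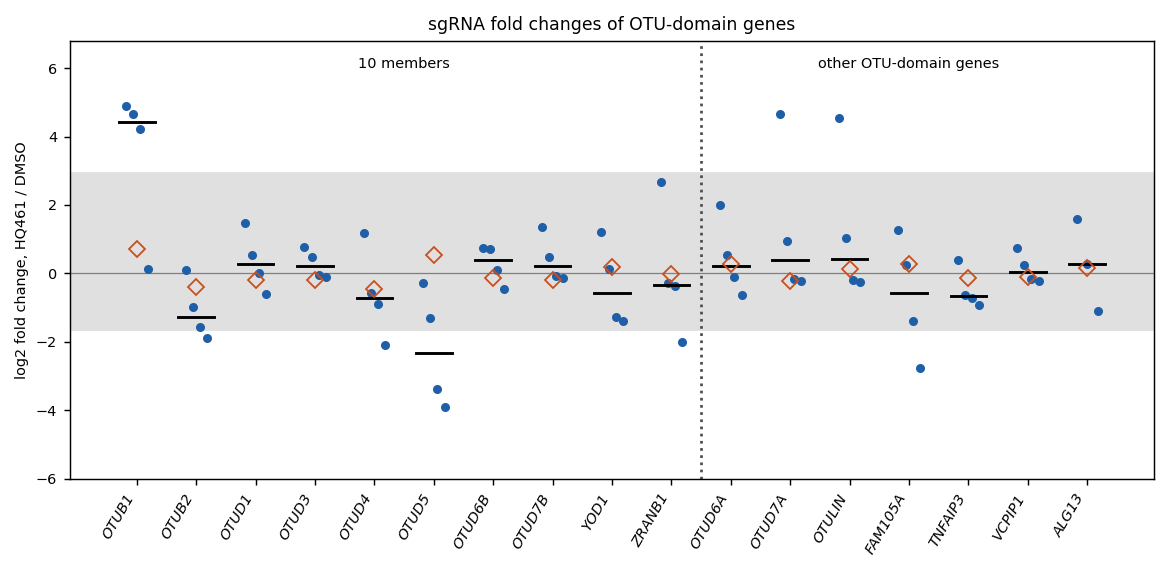
Log2 fold change of each sgRNA (blue points) of the 10 members and of 7 other OTU-domain genes, with the gene median (black bar), the median of the 20 nearest genes (orange diamond) and a grey band spanning the 1st to 99th percentiles of non-targeting controls. The OTUB1 median of 4.43 lies far above its diamond at 0.71, OTUD5 at -2.34 lies below its diamond at 0.53, and OTUD7A and OTULIN have 1 high sgRNA each.

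The OTU-domain genes outside the 10 members were listed for comparison, and 0 of 7 were called, beside 9.01% of all genes called higher and 7.69% lower. With so few genes a count of 0 does not set them apart. Their medians ran from -0.66 for TNFAIP3 to 0.42 for OTULIN. TNFAIP3 is A20, a brake on NF-kappaB. OTULIN removes linear ubiquitin chains, and its first sgRNA had 127 reads with DMSO and 2078 with HQ461, which gave 4.55. The other OTULIN sgRNAs were at 1.04, -0.19 and -0.24. This single sgRNA was as high as those of OTUB1, but no second one of its gene was. OTUD7A also had 1 sgRNA above the controls, with 0 reads with DMSO and 20 with HQ461. That makes 2 of 27 sgRNAs in these genes, where 2.44% of all sgRNAs were that high. FAM105A (now OTULINL), a member without a working active site, was at -0.57, VCPIP1, a partner of VCP, was at 0.04, OTUD6A was at 0.21, and ALG13, a glycosyltransferase subunit with an OTU domain, was at 0.26 from 3 sgRNAs of at most 38 reads with DMSO.

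The E2 enzymes that OTUB1 is known to bind were spread from high to low. UBE2D3 had the highest value of the 7, with 11, 25, 23 and 35 reads with DMSO and 264, 295, 123 and 58 with HQ461. All 4 of its sgRNAs were higher with HQ461, from 1.23 to 4.97. The median was 3.45, and 0 of 20 neighbours reached it, but every count with DMSO was low. UBE2E1 had 448, 246, 146 and 465 reads with DMSO and 2423, 851, 205 and 493 with HQ461. Its median was 1.66, again with all 4 sgRNAs raised, and none of its 20 neighbours was as high. UBE2N, which builds the chains used in DNA damage and NF-kappaB signalling, was low. It had 161 reads in sum with DMSO (137 to 188) and 14 with HQ461 (7.65 to 23.5), and a median of -2.28. By sgRNA these were 1, 55, 40 and 65 reads with DMSO and 1, 9, 4 and 0 with HQ461. The first, with 1 read in each column, says little but enters the median.

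UBE2D2 at 0.68, UBE2E3 at 0.60, UBE2E2 at -0.21 and UBE2D1 at -0.49 were not called. Of the 7 E2 partners 2 were thus called higher and 1 lower, beside 9.01% and 7.69% of all genes. The list median was 0.60, against -0.02 over all genes. The UBE2D enzymes are close paralogs, yet UBE2D3 lay 2.78 above UBE2D2. The lowest UBE2D3 sgRNA, at 1.23, and the highest UBE2D2 sgRNA, at 1.12, were within counting error of each other.

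OTUB1 also holds back ubiquitin signalling at DNA breaks, which RNF8 and RNF168 drive together with UBE2N. RNF8 was called higher at 2.51. Its sgRNAs disagreed, with 12, 64, 121 and 214 reads with DMSO and 296, 878, 140 and 79 with HQ461. The first pair was high with HQ461, at 5.02 and 4.28, and the others were at 0.73 and -0.90. RNF168 at 0.44 and UBE2V1, the partner of UBE2N, at 0.72 were not called.

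**Figure D4:**
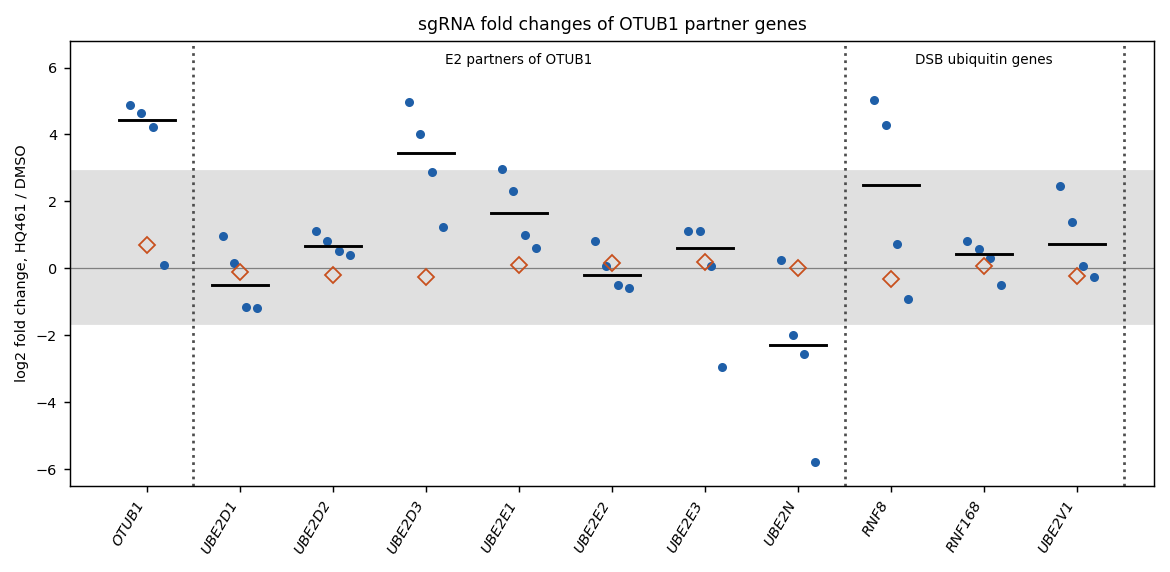
Log2 fold change of each sgRNA (blue points) of OTUB1, of 7 E2 enzymes it is known to bind and of 3 genes of ubiquitin signalling at DNA breaks (DSB), with the gene median (black bar), the median of the 20 nearest genes (orange diamond) and a grey band spanning the 1st to 99th percentiles of non-targeting controls. UBE2D3 (3.45) and RNF8 (2.51) have high medians, and UBE2N (-2.28) a low one. UBE2N includes 1 sgRNA with 65 reads with DMSO and 0 with HQ461.

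Likeness to OTUB1 was measured as the Euclidean distance between the ordered log2 fold changes of the 4 sgRNAs, over 18858 genes with 4 sgRNAs. The nearest genes were SENP8, which processes NEDD8 and removes it from proteins, at a distance of 1.54, ASB3 at 1.68, FMNL1 at 1.73, FAM204A at 1.74 and ZP1 at 1.75. As follows from this choice, each had 1 sgRNA far below its other 3, from 0.30 for ASB3 to 1.01 for ZP1. ASB3 had 2 sgRNAs above the 99th percentile of the controls, and each of the others had 3. All of them had lower medians than OTUB1, from 3.37 to 3.70. ZP1 lies on 11q as well, on the far side of DDB1. This likeness rests on 1 contrast between 2 columns.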

How the data were processed

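Reads of the amplified sgRNA inserts of the Brunello library were counted by the authors with MAGeCK 0.5.9.2, and the deposited values are raw counts per sgRNA without normalization. The labels point both replicates of a condition to 1 column, and the sources do not say whether it pools them. A test over 4 libraries (edgeR) could not be run.

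Members and lists were chosen with earlier results of these data known. From 77441 sgRNAs, 273 at 0 in both columns were removed. Columns were scaled by the median ratio, with a size factor of 0.833 (HQ461) or 1.20 (DMSO). The computation was tested on simulated data, in which all sgRNAs of a changed gene had the same fold. Disagreement between sgRNAs of a gene, as in OTUB1, was not simulated. Genes were placed with GENCODE 44 on GRCh38, the build the submitters name, 17761 by symbol and 955 by an older symbol, and 395 were not placed. Neighbours were the 10 nearest placed genes per side by midpoint. The text names the members, 3 fixed lists (other OTU-domain genes, E2 partners, break signalling), called and adjacent neighbours of OTUB1, and the 5 genes most like it. UBE2V2 was not analysed here, and 1 gene of break signalling and a further list of 4 genes are not reported here. PLA2G16, RTN3 and NAA40 were named after their values were seen. Python 3.11.15, numpy 2.4.6, scipy 1.17.1, pandas 2.3.3 and edgeR 4.0.16 (TMM factors) were used.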

Additional observations from a re-analysis of the deposited data

How the results depend on the processing

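The OTUB1 log2 fold change of 4.43 was 3.75 when scaled by total counts, 3.47 as a mean over sgRNAs, which takes in the flat sgRNA, and 4.21 without the highest sgRNA of each gene. It ran from 4.37 to 4.47 with TMM factors, control scaling, a minimum of 30 normalized counts with DMSO, a pseudocount of 5 and summed counts. Its difference from the neighbours, 3.72, was 2.73 as a mean over sgRNAs, 3.46 with summed counts and 3.70 to 3.72 otherwise. Its rank of 12 became 16 with the minimum count, 19 as a mean, 34 with summed counts and 11 without the highest sgRNA. OTUB1 was the 1 member called higher in all 8 alternatives. The 2 lower members (OTUB2 and OTUD5) became 5 when scaled by total counts, with OTUD4, YOD1 and ZRANB1, since that scaling moves every sgRNA down, and 3 without the highest sgRNA, with YOD1. Called genes became 2.72% higher and 32.1% lower with total counts, 18.1% and 3.68% with summed counts, and 5.21% and 17.4% without the highest sgRNA. In counts of genes, the main 1722 higher and 1470 lower were 520 and 6138, 3460 and 704, and 996 and 3319 there. Each move of the other members was set against the counting interval of the log2 fold change of the gene's summed counts. The limit was the distance from the centre of that interval to either end. Of these values 45 moved by no more than the limit and 27 by more, and no called value changed sign.

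No paired analysis was possible because replicates have no columns of their own, and no replicate was left out. The members had 57 to 573 reads per sgRNA with DMSO, and sgRNAs such as those of UBE2D3 and ALG13, with far fewer, limit what can be seen.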
